A study of Mus musculus with 6 samples.

Results

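The genes described here are 42 effector genes that type I interferon is known to induce, taken by name from the 55487 genes of a table on mouse macrophages. All 42 names had a row, and 40 of them were expressed highly enough to be tested, of 14478 tested genes in all. The study measured poly(A) RNA in wild-type macrophages grown from bone marrow of female BALB/c mice aged 6 to 12 weeks, kept for 8 days in medium with 20% conditioned medium of L929 fibroblasts. Every library came from cells that had then been exposed for 24 hours to the cytokines of alternative (M2) activation, IL-4 and IL-13, each at 10 ng/mL. One group (NP, n = 3) next received 200 µg/mL of nanoparticles for 24 hours, poly(lactide-co-glycolide) by the series title and labelled PEMA, a label the sources used here do not explain. The other (PBS, n = 3) received PBS, so the comparison asks what the particles do to RNA levels in M2 macrophages. Nothing in the labels says that the 3 samples of a group came from separate cultures or mice, so each p reflects the spread among these samples alone, and that spread may be technical.

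Type I interferons are cytokines that bind the receptor pair Ifnar1 and Ifnar2. The kinases Jak1 and Tyk2 then activate Stat2, which joins Irf9 in a complex that binds the interferon-stimulated response element (ISRE) in front of target genes. The products sense foreign RNA and DNA, block translation, degrade RNA, hold back virus release and attach the small modifier ISG15 to other proteins, and macrophages keep many of them at a low level without infection.

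Total counts were 41974957 to 56265590 in PBS and 60702163 to 69450411 in NP, and levels are given as CPM, counts scaled to the size of the library. Macrophage markers summed to 12175 to 12465 CPM in PBS and 9710 to 10791 CPM in NP, with 7 of 9 lower and 1 higher in NP. The largest part of this sum was Lyz2, with means of 8330 and 6738 CPM. Genes induced by IL-4 summed to 1768 to 2068 against 849 to 999 CPM, with 3 of 5 lower in NP. The largest part was Mrc1, with means of 1165 and 467 CPM, and Retnla and Chil3 were not called. PBS 2 and PBS 3 stood apart in olfactory and vomeronasal receptor genes, with 138 and 153 CPM against 9.70 to 12.5 CPM in the other libraries. NP 2 lay nearer to PBS than NP 1 and NP 3 did over many genes, as described below. Results are therefore also given against PBS 1 alone and without NP 2.

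Most of the effector genes were lower in macrophages given nanoparticles. Of the 40 tested, 31 fell, 2 rose (Slfn5 and Isg20) and 7 did not pass (Isg15, Oas1a, Oasl1, Rsad2, Bst2, Ifi204 and Helz2), at an adjusted p of 0.05 by limma voom over all tested genes. Of all tested genes 21.4% were lower and 19.8% were higher by this rule. The median log2 difference (NP minus PBS) was -0.44 over the members, from -2.16 for Mx2 to 0.53 for Isg20, and -0.00 over all tested genes. A decrease of at least 2-fold was called for 10 members (Mx2, Cxcl10, Ifit3, Rtp4, Mx1, Cmpk2, Ifi44l, Ifit1, Ifi44 and Oas2), and for 2.67% of all tested genes. Without PBS 1 this was 7 members and 11.2% of tested genes, and without NP 1 it was 6 members and 1.14%. Every NP library was below every PBS library in 31 members, as in 26.8% of all tested genes, and above every PBS library in 2, as in 26.5%. In bulk RNA, fewer cells that express a gene and less RNA per cell cannot be told apart. Against PBS 1 alone the median was -0.52 over the 40 members tested in the main fit, and 38 of their log2 differences were negative. The median over all tested genes was -0.01 in that fit. Without NP 2, 31 of 41 tested members were lower and 2 higher. Of all 15824 genes tested in that fit, 17.1% were lower and 2971 genes were higher. The median without NP 2 was -0.52 over the 40 members tested in the main fit.

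**Figure D1:**
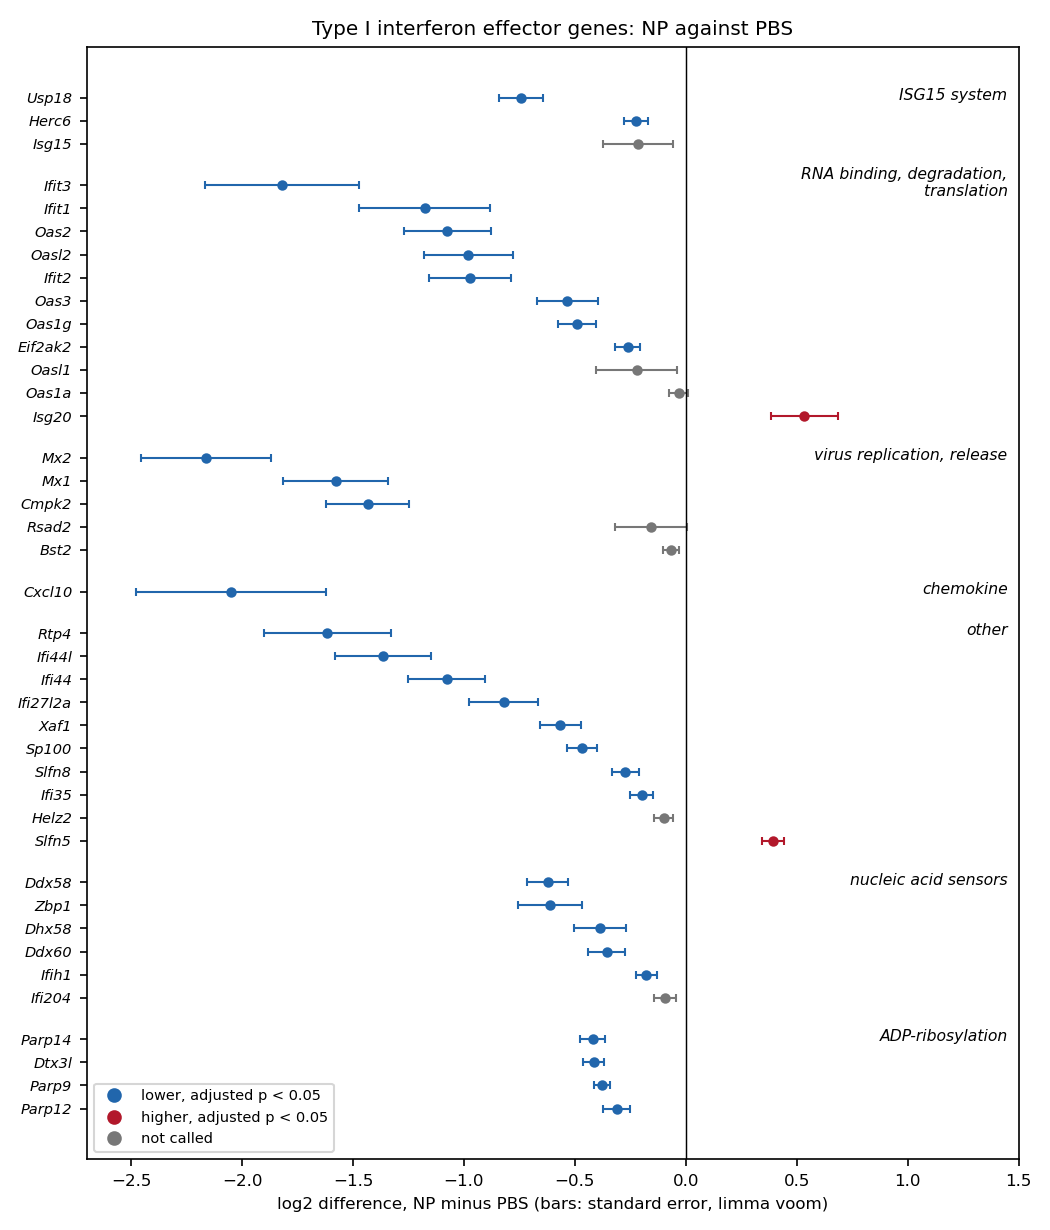
Log2 difference between NP and PBS (x axis) of the 40 tested effector genes grouped by role, with standard errors from limma voom and colour for the call at adjusted p of 0.05. The 31 blue points lie left of 0 and reach -2.16 at Mx2, and the 2 red points, Isg20 and Slfn5, lie right of 0.

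The ISRE was read from the sequence in front of these genes, because most of them moved together and this element is known to drive such genes. RefSeq promoters on GRCm38.p6, from 250 bases before to 50 bases after the start site, were matched for 31 of the 42 members by symbol. Mx1, Mx2, Oas2, Usp18, Zbp1, Dhx58, Ifi204, Ifi27l2a, Rtp4, Parp9 and Parp14 had no entry. The core GAAANNGAAA, searched on both strands, was present in 17 of 31 members (54.8%) and in 3.99% of 27025 genes with a promoter. The longer form GAAANNGAAACT, which contains the core, was present in 10 members (32.3%) and in 0.303% of genes. The gamma activated site TTCNNNGAA was present in 6 members (19.4%) and in 9.55% of genes.

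Windows around the core are printed for some members that fell, for those that did not fall and for the near-identical pairs. Members that fell with the core but are not printed are Oas3, Ifih1 and Eif2ak2, without the longer form, and Ddx60 and Slfn8, with it. The printed members that fell all carry the longer form. Each window is on the strand that carries the match, with the core in capitals.
Cxcl10: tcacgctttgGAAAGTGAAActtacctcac
Ifit3: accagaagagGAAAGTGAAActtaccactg
Ifit3b: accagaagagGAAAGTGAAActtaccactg
Ifit1: actgagactgGAAAGTGAAActgaagcctg
Ddx58: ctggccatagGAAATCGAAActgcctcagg
Oas1a: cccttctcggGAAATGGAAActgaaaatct
Oas1g: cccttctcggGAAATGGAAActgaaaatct
Bst2: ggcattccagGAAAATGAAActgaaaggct
Isg15: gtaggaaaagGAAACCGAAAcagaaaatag
Rsad2: tctgttttctGAAAATGAAAgttggaccag
Slfn5: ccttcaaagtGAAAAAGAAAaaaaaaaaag
The windows lie on the minus strand at chr5:92349083-92349112 (Cxcl10), chr19:34583363-34583392 (Ifit3), chr19:34607759-34607788 (Ifit3b), chr19:34640775-34640804 (Ifit1), chr5:120907526-120907555 (Oas1a), chr5:120887612-120887641 (Oas1g), chr8:71537583-71537612 (Bst2) and chr4:156200871-156200900 (Isg15). Those of Ddx58 (chr4:40239804-40239833), Rsad2 (chr12:26456553-26456582) and Slfn5 (chr11:82951937-82951966) lie on the plus strand. Ifit3 and Ifit3b carry the same 30 letters, and so do Oas1a and Oas1g. Of 15 tested members with the core 10 fell and 1 rose, with a median log2 difference of -0.27, and of 14 without it 11 fell and 1 rose, with a median of -0.44. Of all tested genes 21.4% were lower and 19.8% higher. The member with the core that rose is Slfn5, where a run of A follows the match. With the longer form 7 of 9 tested members fell, with a median of -0.49, against 14 of 20 without it, with a median of -0.29. Members fell both with and without these letters: Bst2 and Oas1a carry the longer form and did not pass the test, while Cmpk2 and Ifi44 fell without the core in the window.

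Among the sensors of foreign RNA and DNA, 5 of 6 tested genes fell, with a median log2 difference of -0.37. Ddx58, which encodes the RNA sensor RIG-I, had 36.7, 32.2 and 34.0 CPM in PBS 1 to 3 and 19.9, 26.4 and 21.4 CPM in NP 1 to 3. All NP libraries lay below all PBS libraries, and the highest of them was NP 2. The mean fell from 34.3 ± 2.24 to 22.6 ± 3.39 CPM (SD, n = 3 each), a log2 difference of -0.62 (SE 0.09, adjusted p = 0.000676). Ifih1, which encodes MDA5, the sensor of long double-stranded RNA, was the most abundant of these genes in CPM, with 39.2, 37.8 and 36.1 CPM in PBS and 32.0, 34.5 and 33.6 CPM in NP. Its decrease was much smaller, at -0.18 (SE 0.05, adjusted p = 0.0121 by limma voom), and was no longer called without PBS 1, NP 1 or NP 3 (adjusted p from 0.0612 to 0.0721). The log2 ratio of Ddx58 to Ifih1 was -0.14 ± 0.08 in PBS and -0.57 ± 0.16 in NP, without overlap between the groups (exact two-sided permutation p = 0.1, the smallest that 3 against 3 libraries allow, and 0.129 adjusted over 9 pairs of members).

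Zbp1, a sensor of Z-form nucleic acids, fell by 0.61 on the log2 scale (SE 0.14, adjusted p = 0.00788), and its call was lost without NP 1, without NP 3 or with PBS 1 alone (adjusted p from 0.0502 to 0.0788). Ddx60, a helicase linked to RIG-I signalling, fell by 0.36 (SE 0.08, adjusted p = 0.00671), with NP libraries of 3.85 to 4.05 CPM under PBS libraries of 4.88 to 5.21 CPM. With PBS 1 alone its adjusted p was 0.124. Dhx58, which encodes LGP2, a relative of both RNA sensors, is given in full because its groups overlapped, a choice made after its values were seen. It had 14.4, 11.5 and 13.3 CPM in PBS and 9.03, 12.1 and 9.43 CPM in NP, so that NP 2 stood above PBS 2. Its log2 difference was -0.39 (SE 0.12, adjusted p = 0.0242), and the call was lost without any one library other than PBS 2 or NP 2 (adjusted p from 0.0782 to 0.148).

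The sensors of the Ifi200 family, DNA-binding proteins, gave no call. Ifi204 had 22.1, 22.0 and 23.4 CPM in PBS and 21.6, 21.8 and 20.0 CPM in NP. These groups did not overlap, but the difference was -0.09 (SE 0.05, adjusted p = 0.173). Ifi205 was too low to test, with 6, 5 and 10 counts in PBS and 0, 4 and 1 in NP. Summed over libraries its level in PBS was 5.38 times that in NP, with an exact 95% interval of 1.97 to 18.3 that covers counting error only.

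In the ISG15 system the modifier itself did not pass, while 2 of its 3 genes fell. Isg15 had 3.93, 2.81 and 3.19 CPM in PBS and 2.68, 3.48 and 2.55 CPM in NP, and NP 2 lay above PBS 2 and PBS 3. Its log2 difference was -0.22 (SE 0.16, adjusted p = 0.308), with -0.06 without PBS 1 (adjusted p = 0.811) and -0.45 without PBS 2 and NP 2 (adjusted p = 0.0411). Usp18, the protease that removes ISG15 and dampens signalling at the interferon receptor, had 8.67, 7.08 and 8.94 CPM in PBS and 4.76, 5.004 and 5.08 CPM in NP. The 3 NP libraries lay close together and far below PBS, with a log2 difference of -0.74 (SE 0.10, adjusted p = 0.000365). Usp18 is 1 of the few members in which NP 2 was not nearer to PBS than the other NP libraries. Herc6, the main ligase for ISG15 in mice, had 23.7, 21.2 and 21.5 CPM in PBS and 19.1, 19.4 and 18.4 CPM in NP, a difference of -0.23 (SE 0.05, adjusted p = 0.00807) that was lost without NP 3 (adjusted p = 0.0611).

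Among the genes that bind or degrade RNA or block translation, 8 of 11 tested fell and 1 rose, with a median log2 difference of -0.53. The Ifit genes, which bind viral RNA and translation factors, lie together on chromosome 19 between 34550694 and 34650009 (GRCm38). Ifit3 had 3.18, 2.04 and 1.54 CPM in PBS and 0.441, 0.911 and 0.595 CPM in NP. Every NP library was below every PBS library, and the log2 difference was -1.82 (SE 0.35, adjusted p = 0.00272). Its near-identical copy Ifit3b, not tested, had 22, 15 and 8 counts in PBS and 3, 6 and 3 in NP, at a much lower level than Ifit3. Reads that fit both copies cannot be assigned with certainty, so the split between them is uncertain. The log2 ratio of Ifit3 to Ifit3b was 2.91 ± 0.37 in PBS and 3.20 ± 0.16 in NP (exact two-sided permutation p = 0.4, adjusted over 9 pairs 0.45). Ifit2 fell by 0.97 on the log2 scale (SE 0.19, adjusted p = 0.00271), from 12.97 ± 3.09 to 6.74 ± 1.497 CPM. Ifit1 fell by 1.18 (SE 0.30, adjusted p = 0.0109), and its call was lost without NP 1 or NP 3 (adjusted p = 0.0701 and 0.0867).

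The Oas genes make the oligoadenylate that activates the nuclease RNase L, and they lie on chromosome 5 with their relatives Oasl1 and Oasl2. Oas1a had 56.5, 53.3 and 58.9 CPM in PBS and 55.6, 56.2 and 53.2 CPM in NP. The groups overlapped almost wholly, with a log2 difference of -0.03 (SE 0.04, adjusted p = 0.577). Oas1g, next to it and close in sequence, had 10.7, 10.5 and 10.3 CPM in PBS and 6.65, 8.45 and 7.56 CPM in NP. The NP libraries of Oas1g were all below PBS, with a difference of -0.49 (SE 0.09, adjusted p = 0.00177). The log2 ratio of Oas1a to Oas1g was 2.42 ± 0.09 in PBS and 2.87 ± 0.17 in NP, without overlap (exact two-sided permutation p = 0.1, adjusted over 9 pairs 0.129), although the division of shared reads between them is uncertain. Oas2 fell by 1.08 (SE 0.20, adjusted p = 0.00215), from 7.10 ± 1.24 to 3.52 ± 1.01 CPM.

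Oas3 is given in full for its overlap, again a choice made after its values were seen: it had 19.5, 14.6 and 17.3 CPM in PBS and 10.4, 14.9 and 10.998 CPM in NP. NP 2 lay above PBS 2, while NP 1 and NP 3 lay below all PBS libraries. The log2 difference of -0.53 (SE 0.14, adjusted p = 0.0124) was not called without PBS 1, NP 1 or NP 3 (adjusted p from 0.0649 to 0.101). Oasl2 fell by 0.98 (SE 0.20, adjusted p = 0.00381), from 17.0 ± 2.23 to 9.16 ± 3.27 CPM. Its neighbour Oasl1, known to restrain the translation of Irf7, had 8.90, 5.91 and 6.58 CPM in PBS and 5.35, 8.04 and 5.44 CPM in NP. NP 2 was higher than PBS 2 and PBS 3, and the difference of -0.22 (SE 0.18, adjusted p = 0.367) was -0.02 without PBS 1 (adjusted p = 0.955) and -0.52 without PBS 2 and NP 2 (adjusted p = 0.0153).

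Eif2ak2, which encodes the kinase PKR that stops translation when it binds double-stranded RNA, had the highest mean CPM of these genes over all libraries, although Oas1a was higher in each NP library. It had 67.7, 59.6 and 60.0 CPM in PBS and 49.5, 54.7 and 52.2 CPM in NP, all below PBS, with a log2 difference of -0.26 (SE 0.06, adjusted p = 0.00493). Isg20, an exonuclease that degrades single-stranded RNA, moved the other way, with 1.32, 1.55 and 1.85 CPM in PBS and 2.41, 2.19 and 2.13 CPM in NP. All NP libraries of Isg20 were above all PBS libraries, with a log2 difference of 0.53 (SE 0.15, adjusted p = 0.0191). Without PBS 1, PBS 2, NP 1 or NP 3 its adjusted p was 0.0508 to 0.0695.

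The genes against virus replication and release split sharply, with 3 of 5 down by more than 2-fold and the other two not called. Mx2, a dynamin-like GTPase, had 1.51, 1.31 and 0.935 CPM in PBS and 0.221, 0.365 and 0.248 CPM in NP. The lowest PBS library was well above the highest NP library, and the log2 difference of -2.16 (SE 0.29, adjusted p = 0.00042) was the largest among the tested members. Mx1, its neighbour on chromosome 16, fell by 1.58 (SE 0.24, adjusted p = 0.000703), from 2.60 ± 0.67 to 0.882 ± 0.172 CPM. Many inbred mouse strains, BALB/c among them, carry a defective Mx1 allele, and the RNA level says nothing about protein. Cmpk2, a mitochondrial nucleotide kinase, had 10.6, 7.08 and 7.11 CPM in PBS and 2.72, 3.58 and 2.93 CPM in NP. The NP libraries of Cmpk2 lay far below PBS, with a difference of -1.43 (SE 0.19, adjusted p = 0.000331).

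Rsad2 encodes viperin, which turns a nucleotide into a chain terminator of viral RNA synthesis, and it lies 12751 bp from Cmpk2 on chromosome 12. It had 17.1, 11.1 and 10.4 CPM in PBS and 12.5, 11.1 and 10.8 CPM in NP. Only PBS 1 stood above the NP libraries, so that the log2 difference was -0.16 (SE 0.16, adjusted p = 0.47) over all libraries, 0.11 without PBS 1 (adjusted p = 0.363) and -0.58 against PBS 1 alone (adjusted p = 0.0111). The log2 ratio of Cmpk2 to Rsad2 was -0.70, -0.65 and -0.55 in PBS and -2.20, -1.63 and -1.87 in NP. The difference between the groups, -1.27 with no overlap, had an exact two-sided permutation p of 0.1, and 0.129 after adjustment over the 9 pairs. The ratios of Mx1 to Mx2, Ifi44 to Ifi44l and Oasl1 to Oasl2 were higher in NP without overlap, by 0.61, 0.30 and 0.76, with the same exact p. Bst2, which encodes tetherin, a membrane protein that holds budding virus at the cell surface, had 82.9, 80.6 and 85.3 CPM in PBS and 79.8, 81.0 and 77.0 CPM in NP. The groups overlapped, and the log2 difference was -0.07 (SE 0.03, adjusted p = 0.158).

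**Figure D2:**
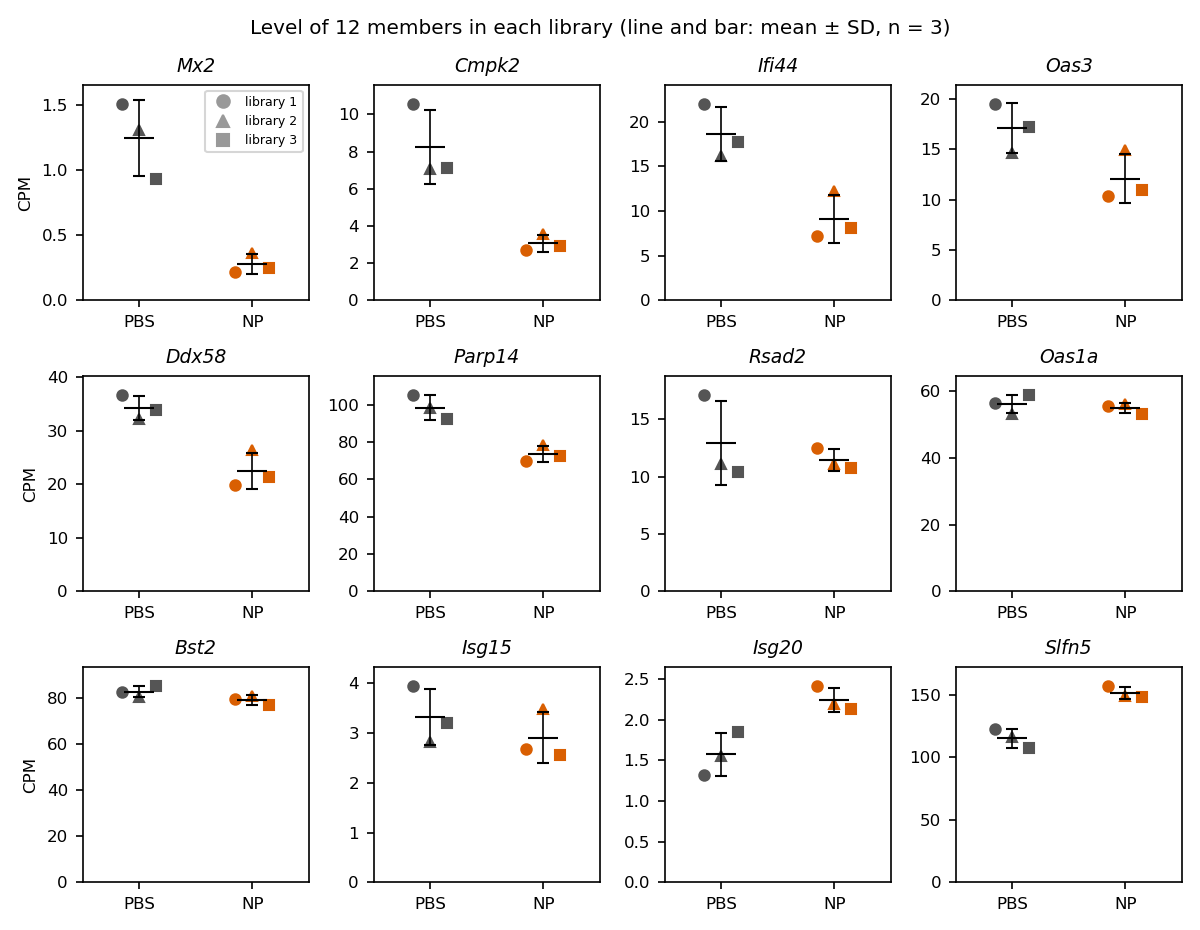
Level in CPM (y axis, from 0) of 12 members in each of the 6 libraries, with circles, triangles and squares for libraries 1, 2 and 3 and a line and bar for mean ± SD (n = 3). Mx2 and Cmpk2 show no overlap, NP 2 reaches the PBS range in Oas3 and Isg15, Rsad2 is high in PBS 1 alone, and Isg20 and Slfn5 are higher in NP.

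All 4 members of the ADP-ribosylation group fell, by similar amounts. Parp9 and Dtx3l, whose proteins form 1 complex, fell by 0.38 (SE 0.04, adjusted p = 6.53e-05) and 0.41 (SE 0.05, adjusted p = 0.000161) on the log2 scale. Parp9 had the smallest p of all members, with 51.9, 51.3 and 52.0 CPM in PBS and 39.0, 41.4 and 39.2 CPM in NP. These genes overlap at their ends on opposite strands of chromosome 16, where reads cannot be told apart without the strand setting. Their log2 ratio was -0.08 ± 0.06 in PBS and -0.04 ± 0.03 in NP (exact two-sided permutation p = 0.5). Parp14, known as a cofactor of Stat6 in IL-4 responses, had 105, 98.1 and 92.0 CPM in PBS and 69.8, 78.3 and 72.7 CPM in NP, a difference of -0.42 (SE 0.06, adjusted p = 0.000372). Parp12 fell by 0.31 (SE 0.06, adjusted p = 0.00298), from 49.6 ± 1.85 to 40.1 ± 3.61 CPM.

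Cxcl10, the chemokine that draws T and NK cells through Cxcr3, was among the least abundant members. It had 59, 23 and 30 counts in PBS and 6, 16 and 12 in NP, or 1.04, 0.539 and 0.584 against 0.0882, 0.265 and 0.198 CPM. All NP libraries were below PBS, with a log2 difference of -2.05 (SE 0.43, adjusted p = 0.00423). The call was lost without NP 1 or NP 3 (adjusted p = 0.0768 and 0.0718).

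Of the other 10 effectors, 8 fell and 1 rose. Rtp4, a receptor transporter protein with antiviral activity, had 6.13, 3.80 and 4.32 CPM in PBS and 1.12, 2.59 and 1.32 CPM in NP. NP 2 was about midway between the other NP libraries and the lower PBS libraries, and the log2 difference was -1.62 (SE 0.29, adjusted p = 0.00178). Ifi44l and Ifi44, neighbours on chromosome 3, fell by 1.36 (SE 0.22) and 1.08 (SE 0.17), with adjusted p of 0.000995 and 0.00111. Ifi27l2a, a mitochondrial protein gene, fell by 0.82 (SE 0.16, adjusted p = 0.00264) and Xaf1, which promotes apoptosis, by 0.57 (SE 0.09, adjusted p = 0.00114). Sp100, a component of nuclear bodies, fell by 0.47 (SE 0.07, adjusted p = 0.000541), from 60.3 ± 2.25 to 43.9 ± 4.58 CPM.

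The remaining genes of this group moved little or upward. Ifi35 fell by 0.20 (SE 0.05, adjusted p = 0.0138), a call lost without any one library other than PBS 2 or NP 2 (adjusted p from 0.0564 to 0.0872). Helz2, a helicase, had 68.3, 62.3 and 62.4 CPM in PBS and 58.9, 61.1 and 60.3 CPM in NP. These groups did not overlap, but the difference of -0.10 (SE 0.04, adjusted p = 0.0852) did not pass. Slfn5 and Slfn8 belong to the schlafen family and lie 37317 bp apart on chromosome 11. Slfn8 fell by 0.27 (SE 0.06, adjusted p = 0.00677), from 25.1 ± 1.85 to 20.8 ± 1.00 CPM. Slfn5, the most abundant member in CPM, rose: it had 122, 117 and 107 CPM in PBS and 157, 149 and 148 CPM in NP. All NP libraries were above PBS, with a log2 difference of 0.39 (SE 0.05, adjusted p = 0.000247). The log2 ratio of Slfn5 to Slfn8 was 2.20 ± 0.01 in PBS and 2.86 ± 0.11 in NP, without overlap (exact two-sided permutation p = 0.1, adjusted over 9 pairs 0.129).

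The decreases were larger among the members of low level. Of 11 tested members under 5 CPM on average, 9 fell and 7 of them at least 2-fold, with a median log2 difference of -1.36. Of 14 members from 5 to 20 CPM, 12 fell and 3 of them at least 2-fold, with a median of -0.65. Of 15 members at 20 CPM or more, 10 fell and none by 2-fold, with a median of -0.26 and -0.62 (Ddx58) as the lowest value. Calls of at least 2-fold lower were also more frequent at low level among all tested genes, at 5.34%, 2.67% and 1.01% in these 3 ranges, where 12.7%, 26% and 25.1% were lower and the medians were -0.07, -0.02 and 0.02. Per kilobase of exon, the levels in PBS were highest for Bst2 (91.9 CPM per kb), Ifi27l2a (35.6), Oas1a (29.8) and Slfn5 (18.3), of which Ifi27l2a alone fell, and lowest for Cxcl10 (0.320), Ifit3b (0.149) and Ifi205 (0.0333). The members together made up 1107, 1002.5 and 1023 CPM in PBS and 857, 938 and 864 CPM in NP. Without Slfn5 they summed to 984, 886 and 916 CPM against 700.1, 789 and 716 CPM, so NP 2 was the highest NP library and PBS 1 the highest PBS library in both sums.

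NP 2 followed the other NP libraries in part. It lay on the same side of the PBS mean as NP 1 and NP 3 in all tested members but Isg15, Oasl1 and Oas1a, where NP 2 alone was above it. The median log2 level of the tested members relative to the PBS mean was -0.56 in NP 1, -0.32 in NP 2 and -0.47 in NP 3, against 0.10, -0.08 and -0.04 in PBS 1 to 3. NP 2 thus stood at 0.621 of the mean of NP 1 and NP 3, and at 0.449 over the 29 members of at least 5 CPM. Over the 31 members that fell the share was 0.517, against 0.737 over all genes lower in NP. It was 0.772 over all genes higher in NP, so NP 2 lay nearer to PBS there too. NP 2 was the NP library nearest to PBS in 34 of the 40 members (85%), against 51.7% of all tested genes and 69.7% of all lower genes. The exceptions were Isg20, Rsad2, Usp18, Ifi35, Ddx60 and Slfn5. Of the 31 members that fell, NP 2 was below every PBS library in 29 (all but Oas3 and Dhx58), and NP 1 and NP 3 in all 31. By role, the share was lowest for the RNA-binding and translation genes (0.469) and highest for the genes against virus replication and release (0.778).

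**Figure D3:**
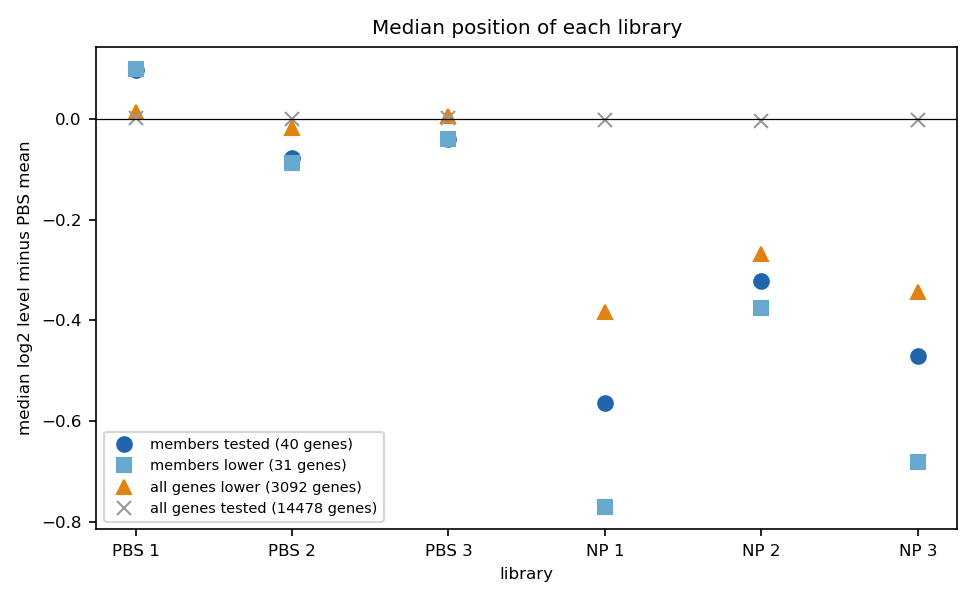
Median log2 level relative to the PBS mean (y axis) in each library (x axis), for the 40 tested members, the 31 members that fell, the 3092 genes of the whole table that fell and all 14478 tested genes. NP 2 lies between PBS and the other NP libraries for the members, at -0.32 against -0.56 and -0.47, and all tested genes lie near 0.

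PBS 1 stood out among the PBS libraries as NP 2 did among the NP libraries. PBS 1 was the highest PBS library in 29 of 40 members (72.5%), against 32.4% of all tested genes and 41.0% of all lower genes. NP 2 was the highest NP library in 34 members, and in 26 of these PBS 1 was the highest PBS library. Members high in PBS 1 tended to be high in NP 2 as well. The excess of PBS 1 over PBS 2 and PBS 3 and the excess of NP 2 over NP 1 and NP 3, which share no library, had a Pearson r of 0.66 and a Spearman rho of 0.60 across the 40 members. Over all tested genes these values were 0.04 and 0.13. The correlation is across genes, which are not independent replicates, and members with low counts spread more in any library, so it is a description with no p. Rtp4, Cxcl10, Ifit3, Ifit1, Ifit2 and Oasl1 had an excess of more than 0.5 log2 units in both groups, whereas Rsad2 was high in PBS 1 and not in NP 2.

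**Figure D4:**
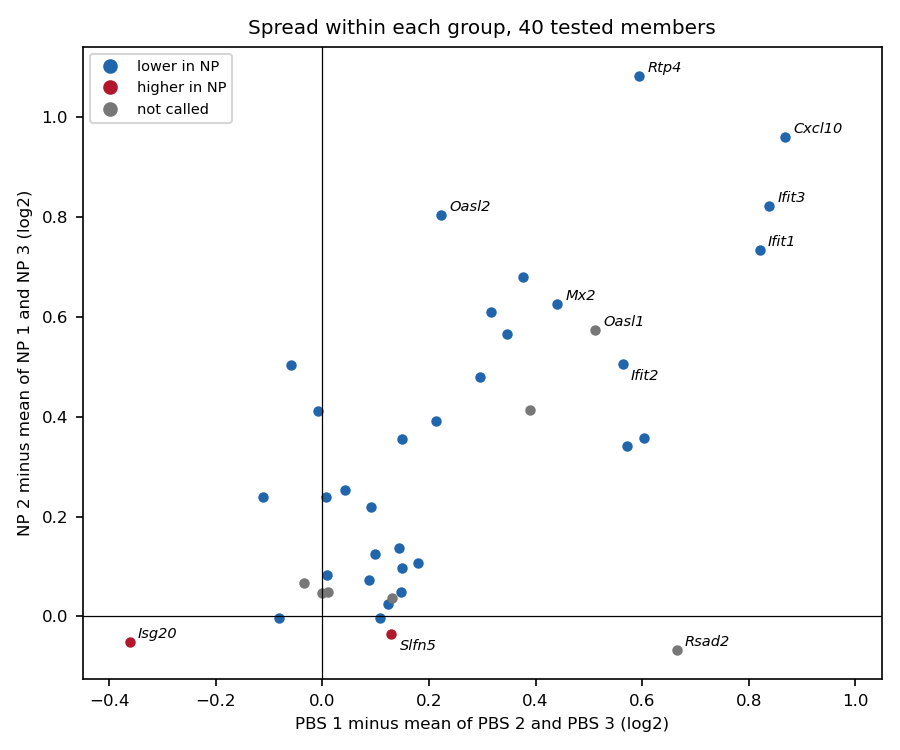
Excess of PBS 1 over the mean of PBS 2 and PBS 3 (x axis, log2) against the excess of NP 2 over the mean of NP 1 and NP 3 (y axis, log2) for the 40 tested members, coloured by the call. Most points lie in the upper right, with 33 members above 0 on the x axis and 35 on the y axis, while Rsad2 lies far right near 0 on the y axis.

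The genes that act before and beside these effectors were then read from lists of the pathway. RNA of the ligands was at or near 0: of 13 interferon genes, 11, Ifnb1 among them, had 0 counts in every library, which allows up to 0.0432 to 0.0715 CPM, and Ifnab and Ifnk together had 6 counts over all libraries. The receptor genes were abundant and not called. Ifnar1 had 206 ± 1.54 CPM in PBS and 207 ± 1.67 in NP (log2 difference 0.00, adjusted p = 0.965), and Ifnar2 132 ± 4.01 and 124 ± 0.78 (-0.08, adjusted p = 0.0641). In the list of receptor and signalling genes 7 of 12 were lower and 1, Jak1, was higher, with a median of -0.20. Irf9 had 40.3, 37.2 and 39.3 CPM in PBS and 28.5, 31.1 and 29.3 CPM in NP, a log2 difference of -0.40 (SE 0.05, adjusted p = 0.000199). Stat2, its partner, fell by 0.24 (SE 0.06, adjusted p = 0.0108). Among negative regulators, the difference was -0.93 (SE 0.15, adjusted p = 0.000949) for Socs1 and -0.43 (SE 0.07, adjusted p = 0.001) for the phosphatase Ptpn6.

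Of 7 tested interferon regulatory factors 5 fell and 1, Irf8, rose, with a median of -0.31. Irf7, the factor that amplifies interferon production and is itself induced by interferon, had 14.2, 9.99 and 12.95 CPM in PBS and 4.34, 8.53 and 4.83 CPM in NP. NP 2 was again the highest NP library, below all of PBS, and the log2 difference was -1.16 (SE 0.22, adjusted p = 0.00244). The genes with the smallest p in this list were Irf1 (-0.57, adjusted p = 3.8e-05), Irf2 (-0.31, adjusted p = 0.000355) and Irf4 (-0.64, adjusted p = 0.0008). Among 18 genes of sensing and induction 10 fell and 1, the adaptor Ticam1, rose, with a median of -0.17. The endosomal RNA receptor Tlr7 fell by 0.93 (SE 0.07, adjusted p = 3.16e-05), from 107 ± 6.53 to 56.5 ± 6.59 CPM, followed in p by Tlr3 (-0.38, adjusted p = 0.000401) and the DNA exonuclease Trex1 (-0.72, adjusted p = 0.000937).

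Interferon-induced genes outside the members were lower more often than higher. Of 49 tested, 27 fell and 3 rose (Ifi207, Ifi30 and Tor3a), with a median of -0.20. Ly6e, Slfn2 and Tor1aip1 had the smallest p, with log2 differences of -0.70, -0.30 and -0.22 (adjusted p = 3.98e-05, 0.000404 and 0.000435). Of 15 tested genes that interferon gamma mainly induces, 11 fell and none rose, with a median of -0.48, led by Cd74 (-0.63, adjusted p = 0.000377), Tgtp2 (-1.24, adjusted p = 0.000867) and Irgm2 (-0.36, adjusted p = 0.00238). The main fit called 21.4% of all tested genes lower and 19.8% higher. In these pathway lists together, with 12, 7, 18, 49 and 15 tested genes, 60 genes were lower and 6 higher in that fit. Fewer of them were called against PBS 1 alone. Fewer of all tested genes were called in that fit too, so the drop is not particular to these lists.

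**Figure D5:**
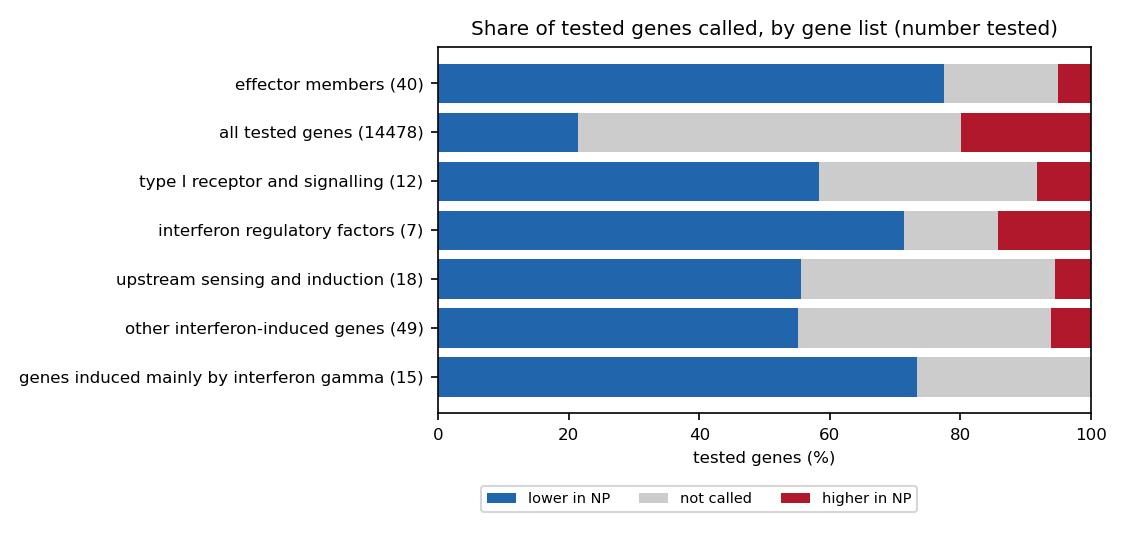
Share of tested genes (x axis, percent) that were lower, not called or higher in NP, for the 40 effector genes, all 14478 tested genes and 5 pathway lists, with the number tested in brackets. The effector genes have 31 of 40 lower, and genes induced mainly by interferon gamma have 11 of 15 lower and none higher.

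Markers of other cells were read beside these results, and their part in them was not tested. Plasmacytoid dendritic cells, known as strong interferon producers, had 8 listed markers that summed to 91.2 to 94.6 CPM in PBS and 65.3 to 71.2 CPM in NP, with Ly6d and Klk1 at 0. Nearly all of this was Tcf4, which fell from 72.2 ± 0.46 to 48.4 ± 3.21 CPM, and Runx2, which was not called. Their defining marker Siglech had 0, 15 and 19 counts in PBS and 0, 1 and 0 in NP. Ccr9 of the same list had 7, 61 and 70 counts in PBS and 15, 17 and 20 in NP, and was not called. Monocyte markers summed to 9.62 to 11.2 CPM in PBS and 4.82 to 6.93 CPM in NP, with Ly6c2 at 0, and both tested markers, Ccr2 and Vcan, fell. Conventional dendritic cell markers summed to 837 to 904 against 831 to 854 CPM, nearly all of it Itgax, which macrophages also express. The sum hides Ccr7, the receptor that guides dendritic cells to lymph nodes, which had 0, 0 and 1 counts in PBS and 27, 25 and 33 in NP (log2 difference 4.98, adjusted p = 5.33e-05). The other tested genes of that list, Zbtb46 (-0.11), Xcr1 (0.35) and Itgax (-0.05), were not called. Flt3 and Clec9a were too low to test. Neutrophil, T and NK cell, B cell, fibroblast and erythroid markers summed to at most 2.81 CPM in any library. Within these lists S100a8 (0.65, adjusted p = 0.0375) and Pdgfra (1.57, adjusted p = 0.0128) were higher in NP, with at most 65 and 22 counts in any library. The other tested genes of their lists, Mpo (0.66), Col1a1 (-0.09) and Col1a2 (0.13), were not called. S100a9, not tested, had 3, 2 and 2 counts in PBS and 0, 2 and 0 in NP. Counts of Cxcl12, also untested, were 1, 7 and 6 in PBS and 0, 2 and 3 in NP. Cd3e had 1, 55 and 34 counts in PBS and 0 in each NP library, and Pax5 had 1, 25 and 23 against 1, 0 and 3, so both were high in PBS 2 and PBS 3 only. These genes were named after their values were seen.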

How the data were processed

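Poly(A) RNA of 6 libraries was read as pairs of 151 bp, per the labels' protocols. Expected counts per gene, held as whole numbers without scaling for depth, are what the authors deposited. The submitters' processing notes name cutadapt 2.3, STAR 2.7.8a, RSEM 1.3.3 and the build GRCm38, with no role for each. Neither the annotation release nor the strand setting is given in the sources used here. RSEM divides reads that fit several genes by estimation, so values of overlapping genes and gene families are uncertain. The layout of the deposited table kept an automatic check from reading its columns, so tests that take checked counts were left out. The main test was therefore limma voom (limma 3.58.1, R 4.3.3), written in the design as the second choice.

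The only term was the group, which left 4 residual degrees of freedom, with trimmed-mean factors of 0.979 to 1.02 and Benjamini-Hochberg adjustment over 14478 genes. A gene was kept if 3 or more libraries had at least 0.171 CPM (10 counts at median depth) and its counts summed to at least 15. voom added 0.5 to each count. CPM of genes use the scaled library sizes, and the limits from 3 counts use the unscaled totals. A further 4 rows that name no gene held 0 counts.

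The members were given by name, and the members, the pathway and marker lists and the tests were chosen with earlier results of these data known. Every member is named. Values in each library are given within each role for the most abundant member, the largest called difference, the smallest p, every member that rose or did not pass, and near-identical copies. In each pathway list the 3 smallest p are named, with Ifnb1, Ifnar1, Ifnar2, Stat2, Irf9 and Irf7, and a few other genes were named after their values were seen. A gene that this rule takes is not reported here. The lists' names Tmem173 and Mb21d1 were matched to Sting1 and Cgas, and Mnda to Ifi211, through RefSeq synonyms. Exonic lengths and coordinates are from GENCODE M21, which held all 42 members. The fit was tested on simulated data. Between libraries of the same group the chi-square per gene was 4.92 to 19.6, so no pair of libraries agreed within sampling noise. Alternatives were other scaling factors, filters and weights, a replicate block, a term for library number and fits without single libraries. Further fits left out PBS 2 and NP 2 together or kept PBS 1 as the only PBS library. The library number was 13 for PBS 2 and 12 for NP 2. It was 4 and 5 for PBS 1 and PBS 3, and 7 and 8 for NP 1 and NP 3. The term for library number set PBS 2 and NP 2 apart from the rest.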

Additional observations from a re-analysis of the deposited data

How the results depend on the processing

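The count of members that fell stayed between 23 (without NP 3) and 34 (sample quality weights) in 17 alternative fits, within 1.5 times of 31. Of all tested genes, 12.5% were lower without NP 3 and 25.4% with sample quality weights, against 21.4% in the main fit. Leaving out 1 library at a time gave 23 to 31 lower and 1 to 2 higher members. The count of members that rose was 1 in place of 2 with the replicate block and without PBS 2 and NP 2, where Isg20 had adjusted p of 0.0513 and 0.0553 by limma voom. Over all genes, leaving out 1 library gave 1975 (without NP 3) to 3850 (without PBS 1) lower and 2102 to 2971 higher, and PBS 1 alone gave 1775 and 1197. The pathway lists had 42 to 56 lower and 4 to 7 higher genes when 1 library was left out, and 38 and 1 with PBS 1 alone. In all fits that left out libraries the filter followed the smaller group, so the tested genes changed. With PBS 1 alone that library was taken to vary like NP. Members lower by at least 2-fold numbered from 6 (without NP 1) to 13 (without PBS 2 and NP 2, among others), against 10 in the main fit. The shares of all tested genes in these fits were 1.14%, 3.12% and 2.67%. Leaving out 1 library moved the log2 difference of Rsad2 from -0.30 to 0.11 (without PBS 1) and that of Oas1a from -0.073 to 0.0026 (without PBS 3). Bst2 and Helz2 were lower with library totals, and these and Ifi204 with sample quality weights. Without the low-count filter, Dhx58, Ifih1, Ifi35 and Herc6 were not called. Same-numbered libraries deviated with correlations of -0.01, -0.12 and -0.14. The labels do not say whether the numbers pair the samples, and correlations from 3 libraries per group cannot decide it. With the replicate block 30 members were lower and 1 higher, and Dhx58 was not called (adjusted p = 0.053 by limma voom). In that fit 18.4% of all tested genes were lower. The share of NP 2 was 0.558 with a mean over members in place of the median. DESeq2 and edgeR were not run. Depth limits the least abundant members most, with 6 to 59 counts of Cxcl10 per library and a standard error of 0.43.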
